A study of Mus musculus with 6 samples.

Results

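Messenger RNA of 9 genes of the calcium response and of egg activation was followed across mouse eggs in metaphase II (MII), as they are ovulated and before fertilization, that carried 1 of 3 tagged forms of the histone variant H3.3. The genes are Itpr1, Trpm7, Cacna1h, Atp2a2, Atp2b1, Camk2g, Fbxo43, Fbxo5 and Wee2. They were chosen by function, except that Camk2g was also chosen on its measured fall in the R26K eggs. All 9 were found among the 24062 genes of the count table, and all 9 were among the 10667 genes that passed the expression filter, Cacna1h through its R26K libraries. Every egg came from a superovulated 8-week-old female of the line HISRainbow;Figla-iCre, in which an oocyte-expressed Cre recombinase selects the form that is made. The groups were eggs with H3.3 of normal sequence joined to eGFP (H3.3), eggs with lysine 27 of H3.3 replaced by arginine and joined to mCherry (K27R), and eggs with arginine 26 replaced by lysine and joined to eCFP (R26K). Eggs were assigned to a form by their colour under a confocal microscope. Because each form had its own tag, the tag and the substitution cannot be told apart. Each group had 2 libraries, called biological replicates in the labels. How many eggs and females each holds is not given in the sources used here.

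In a mouse egg, fertilization starts a series of rises in cytosolic calcium. Phospholipase C makes inositol trisphosphate (IP3), IP3 opens receptors such as the one encoded by Itpr1 in the endoplasmic reticulum (ER), and channels in the plasma membrane such as Trpm7 and Cacna1h let calcium back in between the rises. The pump encoded by Atp2a2 returns calcium to the ER, and the one encoded by Atp2b1 expels it across the plasma membrane. Calmodulin and the kinase CaMKII gamma, encoded by Camk2g, read the rises, and their action leads to the destruction of Emi2 (Fbxo43), the inhibitor of the anaphase-promoting complex that holds the egg in metaphase. Emi1 (Fbxo5) is a relative of Emi2 that acts earlier in meiosis, and Wee2 (also called Wee1B) is an oocyte kinase that inhibits Cdk1, so that the egg can leave M phase.

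An egg does not transcribe its genes and stores mRNAs whose poly(A) tails can lengthen or shorten, and the cDNA here was primed on poly(A) tails. The 3′ ends of the messages are therefore shown. Each line holds 30 bases of the transcript in GENCODE M21 on build GRCm38, read 5′ to 3′ on the strand of the gene. Capitals mark a cytoplasmic polyadenylation element (TTTTAT or TTTTAAT) where the last 100 bases held one, and otherwise the polyadenylation signal (AATAAA or ATTAAA).
Wee2, chr6:40466784-40466813, plus strand: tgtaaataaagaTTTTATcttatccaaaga
Fbxo5, chr10:5799226-5799255, minus strand: aatgtgagttttTTTTATatctgtgaatac
Atp2b1, chr10:99026057-99026086, plus strand: agccactgagccTTTTATtatttgtctatt
Atp2a2, chr5:122456412-122456441, minus strand: atgtctaatgtaTTTTATtgtaacagacat
Camk2g, chr14:20734880-20734909, minus strand: ttgaagatatttAATAAAataacctttaaa
Fbxo43, chr15:36150068-36150097, minus strand: ttaaaactaataATTAAAtttaaaatttac

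The element was found in 4 of 9 genes (Wee2, Fbxo5, Atp2b1 and Atp2a2), against 18.2% of 17858 annotated genes over a window of the same length. The polyadenylation signal was found in 9 of 9, against 78.85% of those genes. Only the transcript strand was searched, and in Wee2, which held the element at 2 places, neither shares a base with the signal. Camk2g held the signal 17 bases from its end and no element in the window. These matches describe letters in 1 annotated transcript per gene and no more. Of the 4 genes with the element, Fbxo5 and Atp2b1 were lower in both R26K libraries than in both H3.3 libraries, Wee2 was higher and Atp2a2 overlapped. Genes without it were as mixed: Camk2g was lower, Fbxo43 and Cacna1h were higher, and Itpr1 and Trpm7 overlapped. By the same measure 44.9% of all tested genes were higher and 15.2% lower. A link between the element and the direction was not tested.

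Total counts were 10803477 to 12748821 in the H3.3 and K27R libraries, while the R26K libraries reached 33786225 and 39603440. Genes with a count numbered 7590 and 7392 in the H3.3, 10715 and 7405 in the K27R, and 12135 and 12112 in the R26K libraries. Levels are given as CPM, the reads of a gene per 1000000 reads of its library with the totals scaled between libraries, and 3 counts stand for 0.0815 to 0.285 CPM. All 15 egg markers had counts in 4 libraries and 14 in the other pair, H3.3 replicate 1 and K27R replicate 2, where Figla was at 0. The egg markers summed to 48235 to 64275 CPM. These sums hide differences in single markers, of which some are given here after their values were seen. Zar1 was at 194 and 270 CPM in the H3.3, 177 and 217 in the K27R, and 4316 and 4089 in the R26K libraries. Dppa3 and Npm2 were lower in both R26K libraries than in both H3.3 libraries. Of 22 cumulus and granulosa markers, 4 to 15 had counts, with sums of 966 to 2084 CPM of which Serpine2 gave 941 to 1914. Their sum was 966 and 1811 CPM in the H3.3, 1962 and 1417 in the K27R and 2084 and 1965 in the R26K libraries. Lhcgr, Areg, Ereg and Pgr were at 0 in all 6 libraries. Other markers were uneven. Cyp19a1, Inha, Tnfaip6 and Akr1c18 were at 0 in H3.3 replicate 1 and at 67.0 to 186 CPM in H3.3 replicate 2. They were at 11.0 to 53.5 CPM in the R26K libraries, and K27R replicate 2 held only Cyp19a1 of them. Ptgs2 had counts in both H3.3 libraries, at 23.8 and 31.4 CPM. The 16 markers of blood, stroma and epithelium summed to 27.02 to 169.6 CPM, with Hbb-bs, Hba-a1, Ptprc, Lyz2 and Ovgp1 at 0 in every library. The part of other cells in the results was not tested. Calls and fold changes were also computed after thinning every library to the smallest total. Shares of genes without a count or with groups that do not overlap come from counts that were not thinned, and the part of the deeper R26K libraries in them was not tested. In libraries from whole eggs primed on poly(A) tails, 3 readings of a lower level cannot be told apart. They are fewer RNA molecules in every egg, fewer eggs that hold the RNA, and the same RNA with shorter tails. The part of differences in how the libraries were made was not tested either.

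Camk2g, the kinase gene chosen on its fall in the R26K eggs, stood at 208 to 533 CPM in the H3.3 and K27R eggs. Its R26K values were 17.5 and 22.1 CPM. The plasma membrane pump gene Atp2b1 was lower in both R26K libraries than in the other 4. The inhibitor genes Fbxo43 and Fbxo5, the kinase gene Wee2 and the ER pump gene Atp2a2 had log2 fold changes of -1.06 to 0.41 against H3.3 in the mutant groups. The channel genes Itpr1, Trpm7 and Cacna1h were low and uneven between the replicates of 1 group or more, and their fitted log2 fold changes had standard errors of 1.19 or more.

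**Figure D1:**
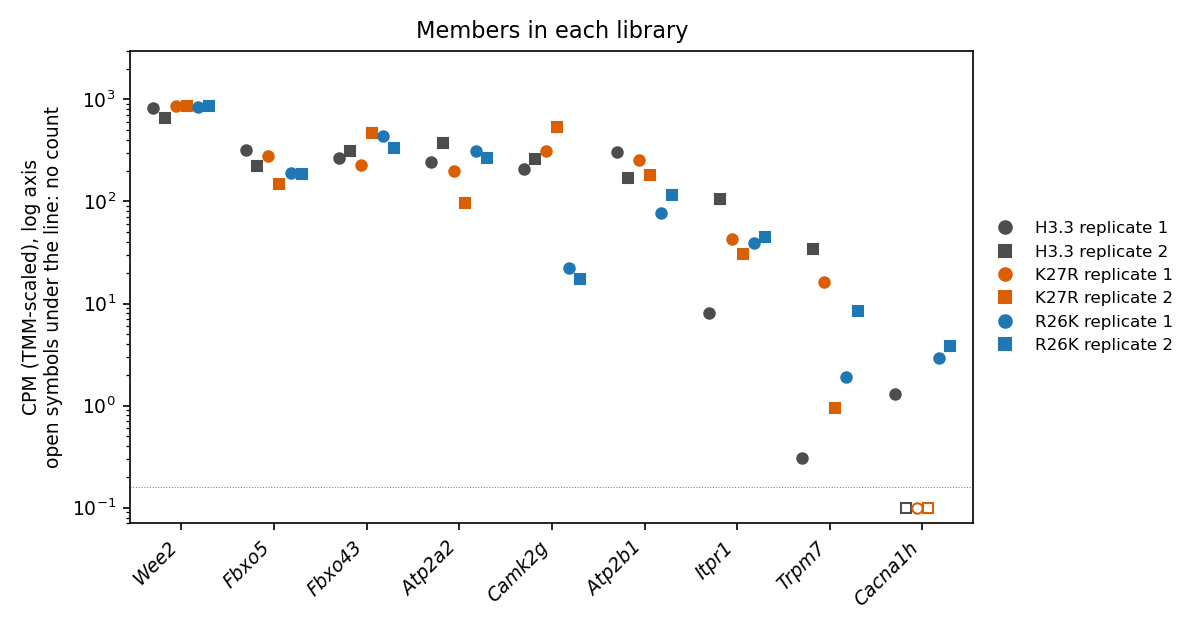
CPM of each of the 9 genes in each of the 6 libraries on a log axis, with the genes ordered by mean CPM per kilobase, colours for the groups and shapes for the replicates; open symbols under the line mark libraries without a count. The R26K symbols of Camk2g lie at 22.1 and 17.5 CPM, under all 4 others, while the symbols of Itpr1 and Trpm7 spread most within the H3.3 group.

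Camk2g lies on chromosome 14 (chr14:20734875-20794088, minus strand) and encodes the gamma chain of calmodulin-dependent kinase II, the form that egg activation in the mouse depends on. It was counted at 208 and 261 CPM in the H3.3 libraries, 310.5 and 533 CPM in the K27R libraries, and 22.1 and 17.5 CPM in the R26K libraries. The R26K values rest on 815 and 577 reads, and the lowest of the other 4 libraries held 2715. Both R26K libraries were below the other 4, and both K27R libraries were above both H3.3 libraries. The log2 fold change was -3.57 ± 0.42 (SE) in R26K against H3.3, a level 11.8-fold lower. Since Camk2g was chosen on that difference, the value is a description and carries no test. A correction for the GC content and length of transcripts, chosen after the data were seen, gave -4.55, the lowest of 16 alternatives, which ranged up to -3.39. Thinning to the smallest library, also chosen after the data were seen, gave -3.62.

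In K27R eggs Camk2g differed from H3.3 eggs by a log2 fold change of 0.85 ± 0.38, with a 95% interval of -0.08 to 1.77. That difference did not pass the test (edgeR with Benjamini-Hochberg adjustment over all tested genes, adjusted p = 0.522). Against R26K the K27R eggs were 21.3-fold higher, 4.41 ± 0.43 on the log2 scale. This comparison uses the R26K libraries on which the gene was chosen, so that it is not an independent test. No 50-base stretch of the Camk2g transcript was found in the transcript of another gene.

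The IP3 receptor gene Itpr1 lies on chromosome 6 (chr6:108213096-108551109, plus strand) and encodes the ER channel through which calcium is released. It was counted at 8.04 and 105.0 CPM in the H3.3 libraries, 42.5 and 30.3 CPM in the K27R libraries, and 39.2 and 45.3 CPM in the R26K libraries. The H3.3 replicates lay 13.1-fold apart and enclosed the other 4 values. The log2 fold change was -0.42 ± 1.19 in R26K against H3.3, and without H3.3 replicate 2 it turned to 2.39. It was -0.63 ± 1.19 in K27R against H3.3, with a 95% interval of -3.53 to 2.26 (edgeR, adjusted p = 0.962). Parts of 2 noncoding genes on the opposite strand overlap Itpr1, and the library kit does not mark the strand, so that their reads cannot be told from its own. Of the 50-base stretches of its transcript, 2.03% occur in those genes.

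Trpm7 on chromosome 2 (chr2:126791565-126876230, minus strand) encodes a channel for calcium and magnesium joined to a kinase. It was counted at 0.306 and 34.2 CPM in the H3.3 libraries, 16.3 and 0.95 CPM in the K27R libraries, and 1.9 and 8.41 CPM in the R26K libraries. The replicates differed 112-fold, 17.2-fold and 4.42-fold, and the 3 groups overlapped. The lowest value rests on 4 reads. The log2 fold change was -1.74 ± 2.58 in R26K against H3.3 and -1.0 ± 2.53 in K27R against H3.3 (edgeR, adjusted p = 0.984), and left-out libraries turned both (-3.18 to 4.05 and -4.17 to 4.78).

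Cacna1h on chromosome 17 (chr17:25374285-25433783, minus strand) encodes a T-type voltage-gated calcium channel, a further route of calcium entry. It was counted at 1.3 and 0 CPM in the H3.3 libraries, at 0 in both K27R libraries, and at 2.91 and 3.87 CPM in the R26K libraries, from 17, 0, 0, 0, 107 and 128 reads. Both R26K libraries were above the other 4. The fitted log2 fold change in R26K against H3.3 was 2.37 ± 2.59. Cacna1h passed the expression filter through its R26K libraries, so its higher R26K values follow from that filter. No bound on the fold is given against K27R, which had no count. The H3.3 level rests on the 17 reads of replicate 1. A stretch of Tpsg1 on the opposite strand overlaps Cacna1h and holds 1.21% of its 50-base stretches.

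At the levels of these 3 channel genes, uneven replicates were common in the H3.3 and K27R groups. Of 2859 tested genes with a mean of 5 to 20 CPM, 57.8% were at least 10-fold apart, or at 0 in 1 library only, in the H3.3 group, against 50.3% in the K27R group and 6.68% in the R26K group. Among 2474 genes at 1 to 5 CPM, where Cacna1h lies, the shares were 40.9%, 65.1% and 18.2%. Among 2909 genes at 20 to 100 CPM the shares were 28.3%, 17.2% and 0.309%, and among 1789 genes at 100 CPM or more they were 2.40%, 0.783% and 0%. The 6 other genes described here have mean levels of 184 to 824 CPM, and their replicates lay at most 2.06-fold apart.

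Atp2a2 on chromosome 5 (chr5:122453513-122502225, minus strand) encodes the pump SERCA2, which refills the ER. Reads gave 244 and 374 CPM in the H3.3 libraries, 198 and 97.2 CPM in the K27R libraries, and 313 and 269 CPM in the R26K libraries. Both K27R libraries were below the other 4, while the R26K and H3.3 libraries overlapped. As a log2 fold change this was -0.09 ± 0.43 in R26K against H3.3. It was -1.06 ± 0.44 in K27R against H3.3 (edgeR, adjusted p = 0.522) and -0.98 ± 0.44 in K27R against R26K, with a 95% interval of -2.04 to 0.08 (edgeR, adjusted p = 0.421). Neither passed the threshold of 0.05. Of the 50-base stretches of its transcript 4.58% occur in the pseudogene Gm30970, so that reads from these parts are of uncertain origin.

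Atp2b1 on chromosome 10 (chr10:98914406-99026143, plus strand) encodes the plasma membrane pump PMCA1. Its libraries stood at 304 and 170.1 CPM in the H3.3 libraries, 254 and 183 CPM in the K27R libraries, and 77.3 and 115 CPM in the R26K libraries. Both R26K libraries were below the other 4, while the H3.3 and K27R libraries overlapped. The log2 difference was -1.30 ± 0.44 in R26K against H3.3. It was 1.18 ± 0.44 in K27R against R26K, with a 95% interval of 0.11 to 2.25 (edgeR, adjusted p = 0.346), and -0.12 ± 0.43 in K27R against H3.3 (edgeR, adjusted p = 1). The ratio of Atp2a2 to Atp2b1 in CPM per kilobase of exon was 2.01 and 5.50 in the H3.3, 1.95 and 1.33 in the K27R, and 10.1 and 5.83 in the R26K libraries. On this scale the R26K pair was highest, with R26K replicate 2 only slightly above H3.3 replicate 2. These ratios were not corrected for GC content and length. That correction moved the log2 fold change of Atp2a2 in R26K against H3.3 from -0.09 to -0.99. Which message exceeds the other depends on the length used: per kilobase of 1 annotated transcript the ratio was 0.847 to 6.43, with K27R replicate 2 the library below 1. Of the 50-base stretches of the Atp2b1 transcript 2.13% occur in the pseudogene Gm29808.

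Fbxo43 on chromosome 15 (chr15:36150060-36164884, minus strand) encodes Emi2, the target of the calcium signal in metaphase arrest. Counts came to 266 and 312 CPM in the H3.3 libraries, 227 and 468 CPM in the K27R libraries, and 434 and 334 CPM in the R26K libraries. Both R26K libraries were above both H3.3 libraries, and the K27R replicates enclosed all 4. In log2 terms the change was 0.41 ± 0.40 in R26K against H3.3 and 0.26 ± 0.40 in K27R against H3.3, with a 95% interval of -0.71 to 1.23 (edgeR, adjusted p = 0.933). In K27R against R26K it was -0.15 ± 0.40, with a 95% interval of -1.12 to 0.82. Of the 50-base stretches of the Fbxo43 transcript 1.4% occur in transcripts of other genes.

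Fbxo5 on chromosome 10 (chr10:5799160-5805600, minus strand) encodes Emi1. Its level was 320.3 and 223 CPM in the H3.3 libraries, 279 and 149.7 CPM in the K27R libraries, and 191 and 185 CPM in the R26K libraries. The R26K pair was below both H3.3 libraries, and the K27R replicates enclosed 3 of those 4. Its log2 fold change was -0.53 ± 0.40 in R26K against H3.3 and -0.34 ± 0.40 in K27R against H3.3, with a 95% interval of -1.32 to 0.64 (edgeR, adjusted p = 0.870). Of the 50-base stretches of its transcript 8.99%, the largest share of the 9 genes, also occur in the pseudogene Gm16042 and in annotated transcripts of Glcci1.

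Wee2 on chromosome 6 (chr6:40439088-40466813, plus strand) encodes the oocyte kinase that inhibits Cdk1. Its values were 828 and 659 CPM in the H3.3 libraries, 868 and 867 CPM in the K27R libraries, and 852 and 868 CPM in the R26K libraries. All 4 libraries of the mutant forms were above both H3.3 libraries, by a small margin. The log2 fold change was 0.21 ± 0.23 in R26K against H3.3. In K27R against H3.3 it was 0.22 ± 0.23, with a 95% interval of -0.33 to 0.77 (edgeR, adjusted p = 0.815), and in K27R against R26K it was 0.01 ± 0.23, with an interval of -0.53 to 0.56. Its replicates lay 1.26-fold, 1.0-fold and 1.02-fold apart, and none of its 50-base stretches was shared.

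Levels of different genes were compared only as CPM per kilobase of exon. On that scale Wee2 was highest, with a mean of 262 and a range of 210 to 276 over the 6 libraries. Fbxo5 (mean 112, range 74.8 to 159.9) and Fbxo43 (84.3, range 56.2 to 115.9) followed, and their ranges overlapped. Atp2a2 (40.97, range 16.0 to 61.4) and Camk2g (35.2, range 2.73 to 83.2) overlapped as well, and so did Camk2g and Atp2b1 (12.1, range 5.08 to 19.97). Itpr1 (2.46), Trpm7 (0.915) and Cacna1h (0.138) came last, with the range of each overlapping that of the next. By group, Camk2g stood at 36.6 CPM per kilobase in the H3.3, 65.9 in the K27R and 3.09 in the R26K eggs, on this scale. The order depends on the length used: per kilobase of 1 annotated transcript, Camk2g (mean 60.8) came before Atp2a2 (55.5), and the other 7 genes kept their places.

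Over the 9 genes, R26K against H3.3 gave 3 with both R26K libraries above both H3.3 libraries (Wee2, Fbxo43 and Cacna1h), 3 below (Camk2g, Fbxo5 and Atp2b1) and 3 that overlapped. By the same measure 44.9% of all tested genes lay above and 15.2% below. Cacna1h passed the expression filter through its R26K libraries, so its place above follows from that filter. The median log2 fold change was -0.42 over the 9 genes and 0.66 over all 10667, but it was 0.03 over the 2858 genes whose mean reached 50 CPM. In this comparison edgeR called 0.403% of tested genes higher (43 genes) and 0.216% lower (23 genes). With upper-quartile scaling these counts were 31 and 27. Camk2g was 1 of the 23, and since it was chosen there, nothing is read from that.

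For K27R against H3.3, Camk2g and Wee2 lay above, Atp2a2 lay below and 6 genes overlapped, with 15.9% of all tested genes above and 9.62% below. None of the 9 passed the test. The share of tested genes called was 0% higher and 0% lower by edgeR, where 759 genes had an unadjusted p under 0.05 and the lowest adjusted p was 0.522, while DESeq2 called 533 higher and 152 lower. The median log2 fold change was -0.34 over the 9 genes and 0.12 over all tested genes.

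For K27R against R26K, Camk2g and Atp2b1 lay above, Atp2a2 and Cacna1h lay below and 5 overlapped, with 17.5% of all tested genes above and 36.3% below. The place of Cacna1h here also follows from the filter that it passed through the R26K libraries. Called by edgeR were 0.169% of tested genes higher (18 genes, Camk2g among them) and 0.206% lower (22 genes), or 23 and 17 genes with upper-quartile scaling. Since Camk2g was chosen on these R26K libraries, nothing is read from its call. The median log2 fold change was 0.01 over the 9 genes and -0.32 over all tested genes. The comparisons share libraries, so their values stand side by side here and no correlation between them is given.

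**Figure D2:**
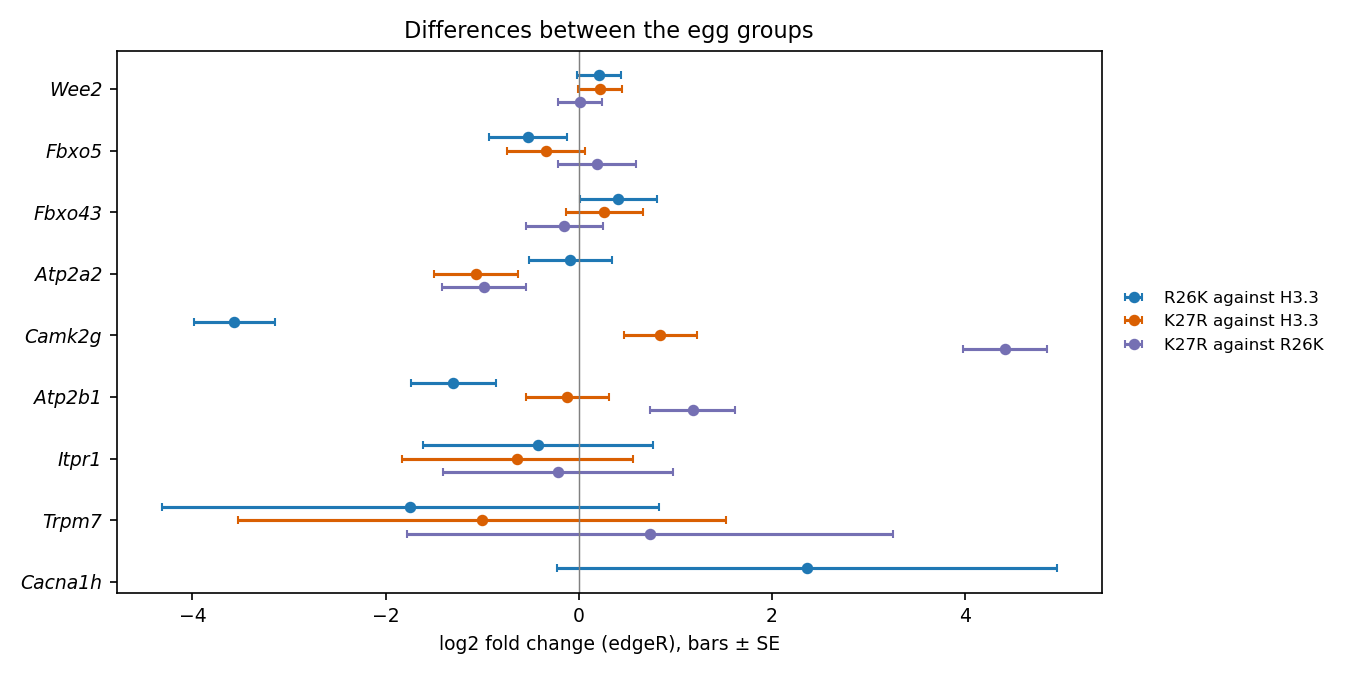
Log2 fold changes of the 9 genes in the 3 comparisons of groups (edgeR), with bars of 1 standard error; comparisons with the K27R eggs are left out for Cacna1h, which had no count there. Camk2g lies at -3.57 in R26K against H3.3 and at 4.41 in K27R against R26K, away from the other genes, and the bars of Itpr1, Trpm7 and Cacna1h are the widest.

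Close relatives of these genes, chosen after their values were seen except for Itpr2 and Cacna1i, were taken next. Camk2g was the CaMKII gene of these eggs: Camk2a had no count in any of the 6 libraries, Camk2b had 1 count in all, and Camk2d had 13 counts, with a highest value of 0.850 CPM. In the R26K libraries, where Camk2g was at 22.1 and 17.5 CPM, the other 3 CaMKII genes had no count. The limit that a count of 0 allows, 3 counts of the total, stands for 0.0815 and 0.0907 CPM there.

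Among IP3 receptor genes the most abundant message was not Itpr1 but Itpr2. Itpr2 was counted at 341 and 825 CPM in the H3.3 libraries, 392 and 627 CPM in the K27R libraries, and 357 and 706 CPM in the R26K libraries. Per kilobase of exon it exceeded Itpr1 by 9.72-fold to 52.5-fold, in each of the 6 libraries. Its log2 fold change in R26K against H3.3 was -0.13 ± 0.54 (edgeR, adjusted p = 0.937), and the groups overlapped. Itpr3 had a mean of 4.83 CPM.

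Each pump was likewise the main member of its family. Atp2a1 had no count and Atp2a3 had 1 count over the 6 libraries. Atp2b4, the next plasma membrane pump gene after Atp2b1, had 0 to 8.47 CPM, and Atp2b2 and Atp2b3 had means of 0.651 and 0.0543 CPM. Among the kinases that inhibit Cdk1, Wee1 had counts only in the R26K libraries, at 4.02 and 4.63 CPM, and passed the expression filter through them. Pkmyt1, which encodes the membrane-bound kinase Myt1, was counted at 2.22 and 0 CPM in the H3.3 libraries, 19.8 and 0.380 CPM in the K27R libraries, and 93.2 and 108 CPM in the R26K libraries. The R26K pair was above the other 4, and the difference from H3.3 did not pass the test (edgeR, adjusted p = 0.230). Of the T-type channel genes, Cacna1g had no count and Cacna1i had a mean of 2.27 CPM, and the channel genes Trpv3 and Trpm6 had means of 0.547 and 0.208 CPM.

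**Figure D3:**
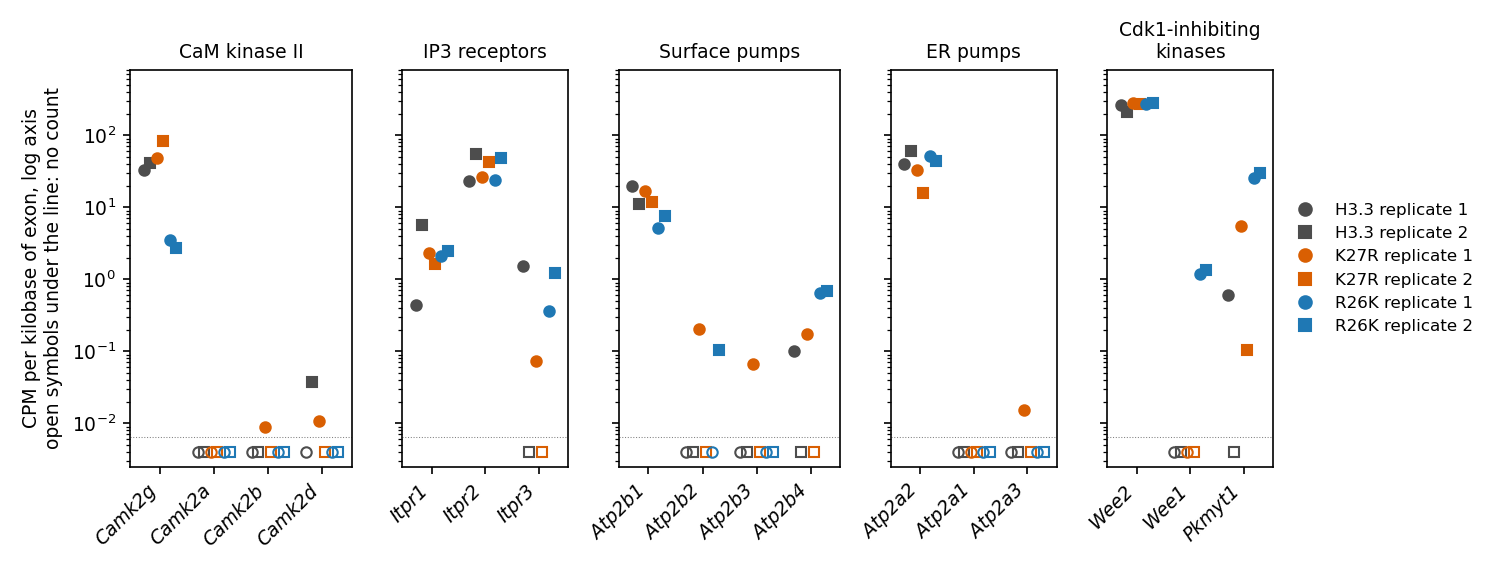
CPM per kilobase of exon of 5 of the genes and their relatives in each library on a log axis, with colours for the groups, shapes for the replicates and open symbols under the line for libraries without a count. Camk2g, Atp2b1, Atp2a2 and Wee2 are the highest of their families in the 6 libraries, and Itpr2 lies above Itpr1 in each.

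The genes whose pattern was most like that of Camk2g were named by the root mean square difference of log2(CPM + 1), each gene centred on its own mean, over the 6 libraries. Of 2857 other genes whose mean reached 50 CPM, the 5 closest were Nup98 (0.218), Tmbim6 (0.327), Sept2 (0.354), Klhl9 (0.371) and Wtap (0.386). Nup98, a gene of the nuclear pore, was counted at 1172 and 1465 CPM in the H3.3 libraries, 1234 and 2496 CPM in the K27R libraries, and 129.5 and 114 CPM in the R26K libraries. Tmbim6, which encodes a membrane protein of the ER, was counted at 525 and 913, at 766 and 1001, and at 54.6 and 65.7 CPM. All 5 shared low R26K libraries with Camk2g. They were picked for that likeness, so no test is attached, and the 6 libraries are 3 groups and not 6 conditions. Within the 9 genes the closest pair on this measure was Wee2 and Fbxo43 (0.375), and the farthest was Camk2g and Cacna1h (2.81).

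**Figure D4:**
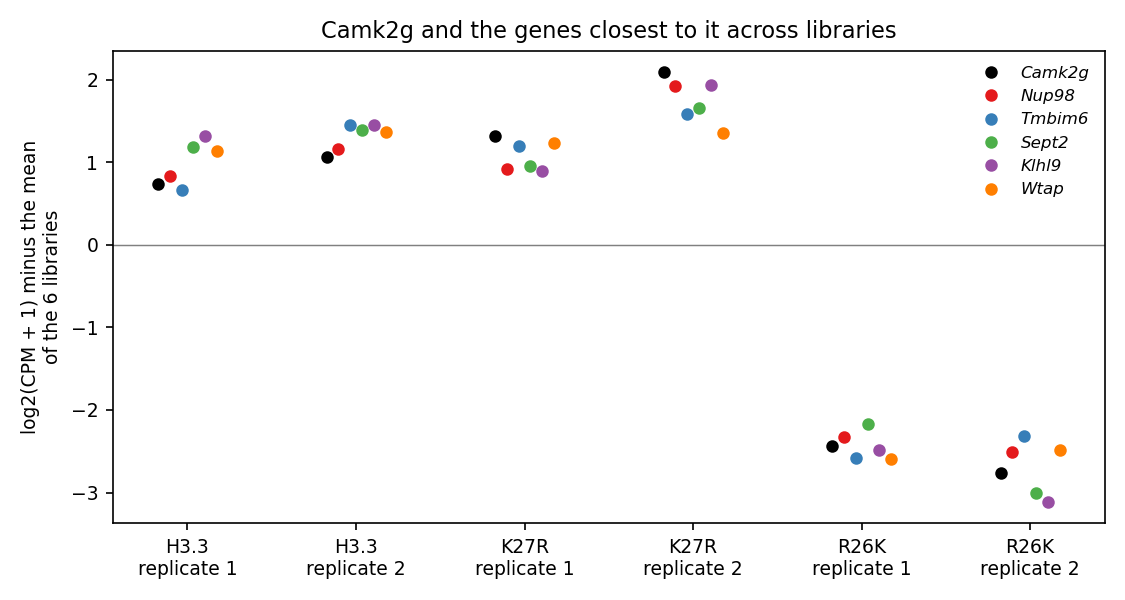
Log2(CPM + 1) minus the gene's mean over the 6 libraries for Camk2g and the 5 genes closest to it, with 1 colour per gene and the libraries along the axis. All 6 genes lie above 0 in the H3.3 and K27R libraries and below 0 in both R26K libraries.

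A list of 113 other genes of the pathway in 9 role groups gave the surroundings. Of these, 92 had a count and 75 were tested. In R26K against H3.3, 1 of 75 passed the test, Skp1a, which fell, and none rose, while 0.216% of all tested genes were called lower and 0.403% higher. Of the 75, 47 had a positive and 28 a negative log2 fold change, and 35 lay above, 15 below and 25 overlapped, beside 44.9% of all tested genes above and 15.2% below. The median was 0.94, beside 0.66 over all tested genes, and 17 of the 75 (22.7%) were at 0 in the whole H3.3 group, as were 20.7% of all tested genes. Those genes passed the expression filter through the other libraries, so they could not lie lower than H3.3. Their part in the counts and in both medians follows from that filter. In K27R against H3.3 none of the 75 passed (lowest adjusted p = 0.522 by edgeR, 3 with an unadjusted p under 0.05 beside 7.12% of all tested genes, 4 called by DESeq2), with a median of 0. The median was 0.06 with genes without a count in 1 group set to 3 counts per library. That value leaves out 8 of the 75, which had no count in 1 group and were at or under this floor in the other. In K27R against R26K none passed (lowest adjusted p = 0.0630 by edgeR, 14 unadjusted beside 13.2% of all tested genes, 7 called by DESeq2 beside 249 higher and 510 lower in all), with a median of -0.85 (-0.83 set to that floor).

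Skp1a encodes a subunit of the SCF ubiquitin ligase, which marks Emi2 for destruction. It was counted at 1385 and 1292 CPM in the H3.3 libraries, 1069 and 1280.0 CPM in the K27R libraries, and 430.2 and 387 CPM in the R26K libraries. The R26K pair was below the other 4. The log2 fold change in R26K against H3.3 was -1.71 ± 0.23 (edgeR, adjusted p = 0.0448). The value lay between -1.91 and -1.48 over 16 alternatives, of which 9 kept it under the threshold, and the adjusted p ranged from 1.9e-11 with DESeq2 to 0.114 without K27R replicate 2. It was also past the threshold without each of the R26K libraries and not past it without each of the 4 others. Cul1, the scaffold of the same ligase, was counted at 1431 to 1815 CPM in all libraries, with a log2 fold change of 0.06 ± 0.21 (edgeR, adjusted p = 0.917) that turned with the scaling. Of the other 15 tested genes for release from metaphase arrest, Plk1, the kinase that acts on Emi2 with CaMKII, was counted at 251 and 223 CPM in the H3.3, 419 and 205 in the K27R, and 612 and 500.0 in the R26K libraries (edgeR, adjusted p = 0.213 for R26K against H3.3). Plk1 and Pkmyt1 were chosen after their values were seen.

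None of the 13 tested genes for calmodulin, its kinases and phosphatases passed the test. In R26K against H3.3, 9 lay above, 3 below and 1 overlapped, beside 44.9% of all tested genes above and 15.2% below. Of those above, Calm3, Camk1, Camkk2, Ppp3cb, Prkca and Prkcd passed the expression filter through the R26K libraries. Their place above follows from that filter, so no excess over all tested genes is read from these counts. Rcan3, which encodes an inhibitor of calcineurin, was counted at 17.1 and 21.5 CPM in the H3.3, 71.7 and 85.6 in the K27R, and 121 and 121 in the R26K libraries, with a log2 fold change of 2.65 ± 0.56 in R26K against H3.3 (edgeR, adjusted p = 0.109).

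Of the 6 calcium-binding proteins of the ER, none passed the test and 2 had R26K libraries far from the other 4. Rcn2, which encodes reticulocalbin-2, was counted at 101 and 175 CPM in the H3.3, 119.6 and 160.5 in the K27R, and 821 and 598 in the R26K libraries. Its log2 fold change in R26K against H3.3 was 2.36 ± 0.39 (edgeR, adjusted p = 0.0685), and 5 of 16 alternatives put it past the threshold. Canx, which encodes the chaperone calnexin, was counted at 559 and 354 CPM in the H3.3, 430 and 408 in the K27R, and 149 and 141 in the R26K libraries, with a log2 fold change of -1.65 ± 0.31 (edgeR, adjusted p = 0.0870). In 2 of 16 alternatives, the replicate block and DESeq2, Canx was past the threshold.

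None of the 8 tested genes of mitochondrial calcium uptake passed. Mcu, the pore of the mitochondrial uniporter, was counted at 1091 and 1140.2 CPM in the H3.3, 792 and 1986 in the K27R, and 411 and 506 in the R26K libraries, with a log2 fold change of -1.28 ± 0.44 in R26K against H3.3 (edgeR, adjusted p = 0.213). The R26K pair was again below the other 4.

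The phospholipases C, release channels, entry channels and remaining pumps (7, 6, 6 and 4 tested genes) gave no call. Plcz1, the sperm phospholipase, had no count in any egg library. Plce1, the most abundant phospholipase C message, had 99.0 and 70.9 CPM in the H3.3, 63.8 and 3.04 in the K27R, and 62.5 and 43.8 in the R26K libraries (R26K against H3.3, edgeR, adjusted p = 0.833). Stim2, an ER calcium sensor, ranged from 29.6 to 137 CPM (adjusted p = 0.764 by edgeR), and Atp2c1, the calcium pump of the Golgi, from 128 to 242 CPM (adjusted p = 0.691 by edgeR). The genes with the smallest p of these groups, Plcg2, Itprip, Cacna1i and Atp2c2, had no count in the H3.3 libraries and 0 to 1.96 CPM in the K27R libraries. They passed the expression filter through the R26K libraries, where Plcg2 was at 9.61 and 9.04 CPM, Itprip at 2.69 and 2.63, Cacna1i at 1.9 and 10.9, and Atp2c2 at 22.97 and 6.65. Their higher R26K values follow from that filter, and no fold is given.

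Of the 8 tested genes for cortical granules and zinc, 5 lay below and 1 above in R26K against H3.3, beside 15.2% and 44.9% of all tested genes, and none passed. Those shares include many genes of low level: the median log2 fold change was 0.66 over all tested genes and 0.03 over the 2858 reaching 50 CPM. Shares among genes at the levels of these 8 were not computed, so no excess is read from the counts. Astl, which encodes the cortical granule protease ovastacin, was counted at 1364 and 1819 CPM in the H3.3, 1676 and 1358 in the K27R, and 866 and 1153 in the R26K libraries, with a log2 fold change of -0.66 ± 0.27 (edgeR, adjusted p = 0.227). Rab3a, a GTPase of granule release, had counts only in the R26K libraries, at 13.3 and 6.84 CPM, and passed the expression filter through them.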

How the data were processed

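The deposited file holds whole-number read counts per gene symbol for 6 libraries of MII eggs, with 0 other columns of samples. Poly(A)-primed cDNA (SMARTer Ultra Low kit) was made into Nextera libraries, which carry no strand mark, and read in 50-base single reads, per the labels' protocols. The authors' tools were featureCounts, SAMtools 1.3, TopHat2 2.1.0 and cutadapt 1.9.1, with build mm10, per the submitters' processing notes. The annotation, the strand setting and the handling of multiply mapping reads are not given in the sources used here.

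From the deposited counts, CPM was computed after TMM scaling, and 10667 genes passed edgeR's filterByExpr. All 6 libraries entered 1 fit of the 3 groups, which left 3 residual degrees of freedom (edgeR 4.0.16, glmQLFit and glmQLFTest, two-sided, R 4.3.3), and p-values were adjusted by Benjamini-Hochberg over all 10667 genes with a threshold of 0.05. A standard error is the size of the log2 fold change over the square root of F. Whether replicates came from separate females is not stated, so a p-value reflects only how far these libraries differ, which may be technical. Intervals are at 95%. Counts are of reads without molecular identifiers, and floors of 3 counts cover counting error only. The steps were tested on simulated counts.

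Coordinates, exon lengths and sequences come from GENCODE M21 (GRCm38, the same assembly as mm10), which matched 22745 of 24062 symbols (94.53%). For the shared stretches, every 50-base word of 1 transcript per gene was looked up in the transcripts of all other genes. The members, the lists and the tests were chosen with earlier results of these data known. Named by rule were all 9 members, list genes past the threshold, the list gene with the highest mean and the one with the smallest p in R26K against H3.3 in each of 9 role groups, and the 5 genes closest to Camk2g. Of these, 1 gene named by the rule is not reported here. Markers of the egg, of cumulus and granulosa cells and of blood, stroma and epithelium were summed. Alternatives were DESeq2 1.42.0, 2 other scalings, no filter, a filter of 10 CPM, a fit of only the groups compared, a block by replicate number, robust estimation, and each library left out. A GC and length correction (10184 of 10667 genes with a value, fitted by loess over genes of at least 50 CPM) and thinning to 10803477 counts were added after the data were seen.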

Additional observations from a re-analysis of the deposited data

How the results depend on the processing

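Over 16 alternatives the log2 fold change of Camk2g stayed at -4.55 to -3.39 in R26K against H3.3 and at 3.97 to 5.36 in K27R against R26K. The number of called genes moved far more. For R26K against H3.3 (43 higher and 23 lower) it was 178 and 63 with no filter, 115 and 42 with a filter of 10 CPM, 0 and 0 in a fit of only the groups compared, 3 and 12 with the GC and length correction, and 1218 and 426 with DESeq2. Left-out libraries gave 1 to 147 higher (1 without either K27R library, highest without H3.3 replicate 1) and 0 to 56 lower (0 without either K27R library). For K27R against H3.3 (0 and 0), DESeq2 gave 533 and 152, and left-out libraries 0 to 5 higher (5 without R26K replicate 1) and 0 lower. For K27R against R26K (18 and 22) the numbers were 56 and 100 with no filter, 37 and 58 with 10 CPM, 7 higher with only the groups compared, 11 and 6 with the GC and length correction, 249 and 510 with DESeq2, and 0 to 52 and 0 to 95 with left-out libraries (0 without either K27R library). Of the pathway list, R26K against H3.3 (1 gene) gave 0 with relative log scaling, with only the groups compared and with the GC and length correction, 3 with no filter, 2 with 10 CPM, 16 with DESeq2 and 0 to 2 with left-out libraries. K27R against H3.3 (0) gave 4 with DESeq2, and K27R against R26K (0) gave 3 with no filter, 1 with 10 CPM, 7 with DESeq2 and 0 to 3 with left-out libraries. Of the 9 genes, R26K against H3.3 (1, Camk2g) gave 0 with only the groups compared and with the GC and length correction, and 2 with DESeq2 (Camk2g and Atp2b1). K27R against R26K (1, Camk2g) gave 0 with only the groups compared and with the GC and length correction. Fits with a left-out library are not counted here for the 9 genes, and Camk2g did not pass in all of them in either comparison. Camk2g was chosen on its fall in the R26K libraries, which both comparisons use, so nothing is read from its passing.

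Replicate numbers did not pair the libraries: deviations from group means correlated at 0.0686, -0.00937 and 0.018 over 2858 genes. With the replicate number as a block, 195 genes were called higher and 65 lower in R26K against H3.3, and 61 and 134 in K27R against R26K, with 4 and 3 genes of the pathway list, and the log2 fold change turned to 0.0218 for Itpr1 in R26K against H3.3 and to 0.90 for Trpm7 in K27R against H3.3.

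Among the genes named, directions turned as follows. In R26K against H3.3, left-out libraries gave -1.32 to 2.39 for Itpr1, -3.18 to 4.05 for Trpm7, -0.37 to 0.25 for Atp2a2, -0.71 to 0.64 for Itpr2, -1.20 to 0.53 for Stim2 and -0.0204 to 0.122 for Cul1. Atp2a2 was at -0.99 and Cul1 at -0.0807 with the GC and length correction, and Cul1 at -0.0263 with relative log scaling, -0.13 with upper-quartile scaling and -0.0263 with DESeq2. In K27R against H3.3 left-out libraries gave -0.35 to 0.70 for Fbxo43, -0.86 to 0.0362 for Fbxo5, -1.52 to 2.17 for Itpr1, -4.17 to 4.78 for Trpm7 and -0.48 to 0.37 for Atp2b1. In K27R against R26K they gave -0.76 to 0.28 for Fbxo43, -0.33 to 0.57 for Fbxo5, -0.48 to 0.0133 for Itpr1 and -2.44 to 2.17 for Trpm7. There upper-quartile scaling gave 0.0922 for Fbxo43 and 0.0105 for Itpr1, and the GC and length correction gave -0.0332 for Fbxo5. Where a left-out library leaves 1 in its group, that library is taken to vary like the others. The cause of these changes was not tested.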

Other observations

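Some pathway genes that the rule for names did not reach, chosen after their values were seen, also had R26K libraries apart from both H3.3 libraries. Calm2, a calmodulin gene, was at 115 and 239 CPM in the H3.3, 126 and 126 in the K27R and 45.7 and 14.8 in the R26K libraries. Ppp3ca, 1 of the genes for the catalytic subunit of calcineurin, was at 81.0 and 83.6, at 38.1 and 123, and at 21.3 and 19.7 CPM, and Ppp3r1, which encodes a regulatory subunit, at 56.3 and 99.0, at 98.8 and 125, and at 165 and 222 CPM. Calr, which encodes the ER calcium store protein calreticulin, was at 15.5 and 3.14, at 65.4 and 38.5, and at 71.5 and 85.5 CPM, and so was higher in all 4 libraries of the mutant forms than in the H3.3 pair. Fbxw11, a substrate receptor of the SCF ligase, was at 0 and 1.36, at 14.8 and 34.7, and at 34.1 and 55.2 CPM. None of these passed the edgeR test in R26K against H3.3 (adjusted p of 0.189 to 0.214).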
